A study of Mus musculus with 5 samples.

Results

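The constitutive proteasome genes were described in RNA sequencing of light zone B cells sorted from germinal centres of the mouse spleen. Members were the rows whose symbol begins with Psm, a letter from a to g and a digit, leaving out Psmb8, Psmb9 and Psmb10, the catalytic subunits of the immunoproteasome. This gave 46 of the 23234 genes in the table. By name they cover the alpha ring (7 genes) and beta ring (7) of the core particle, the base ATPases (6), the base scaffold and ubiquitin receptor (3) and the lid (8) of the regulatory particle, the assembly chaperones of base (3) and core (4), and the activators and inhibitor (5). The other 3 rows were Psma8, Psmb11 and Psmc3ip. Psmc3ip matches the pattern by its letters, but its protein acts in meiotic recombination and is no proteasome subunit.

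The values are FPKM, fragments per kilobase of transcript, scaled to the mapped fragments of each library, in 2 libraries labelled Csk(f/f) and 3 labelled Csk(+/+). Naïve B cells that were Csk(fl/fl) or Csk(+/+), all with ERT2cre(KI/+), a Cre switched on by tamoxifen, B1-8hi(KI/+), a heavy chain knock-in with affinity for the hapten NP, and the CD45.1/2 donor marker, had been put into C57BL/6J hosts. All hosts received NP-CGG in alum on day 0 and tamoxifen on days 8 and 9, and donor cells that bound NP were sorted from the light zone gate on day 11. Csk restrains Src family kinases, and the comparison asks how these B cells differ once the floxed gene has been deleted in activated donor cells. The Csk transcript was not lower in Csk(f/f)-labelled libraries (453 and 476 FPKM, against 378, 436 and 415 in Csk(+/+)). The labels name no floxed exons, so this value does not check the genotype.

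The proteasome degrades proteins tagged with ubiquitin. Its core particle is a barrel of stacked alpha and beta rings, in which Psmb6, Psmb7 and Psmb5 carry the constitutive beta1, beta2 and beta5 proteolytic sites. The regulatory particle caps the barrel: its ATPases unfold the substrate and feed it into the core, and its lid removes the ubiquitin chain. In lymphocytes and under interferon-gamma, Psmb9, Psmb10 and Psmb8 replace the constitutive sites, and the PA28 activator encoded by Psme1 and Psme2 is abundant.

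Read from the smallest steps between low FPKM values, depth was about 23.3 and 9.39 M fragments in Csk(f/f)-labelled libraries and 15.5, 19.2 and 11.5 M fragments in Csk(+/+). At that depth and at the length of its longest transcript, Psmc6 rested on about 298 to 1469 fragments a library. B cell markers (5 of 5) and germinal centre markers (5 of 5) were present, with summed FPKM of 3760 to 4019 and 784 to 815 in Csk(f/f)-labelled libraries, against 2864 to 4018 and 748 to 768 in Csk(+/+). The light zone markers Cd83 and Cd86 summed to 543 to 578 against 459 to 476. Cxcr4, the dark zone marker, had 62.8 to 65.2 against 58.6 to 63.5. All 5 T cell markers stayed under 1 FPKM in every library. Macrophage markers (4 in the table, 3 of them under 1 FPKM throughout) summed to 11.1 to 12.7 against 2.07 to 8.78. Plasma cell markers (4, with Sdc1 and Prdm1 under 1 FPKM) summed to 182 to 208 against 207 to 251, neutrophil markers (2) to 0 in both against 0 to 2.65, and platelet markers (2) to 0.763 to 0.875 against 0.402 to 1.53. Erythroid markers (4) summed to 100 to 380 against 140 to 783. The 6 cycling markers summed to 202 to 243 against 287 to 338. The groups thus did not overlap in the cycling sums, which were lower in Csk(f/f)-labelled libraries. Nor did they overlap in the germinal centre, light zone and macrophage sums, which were higher there. Single genes of the germinal centre and light zone lists went in both directions. The part of these markers in the values that follow was not tested. In bulk RNA, fewer cells of a type and less RNA per cell cannot be told apart.

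No proteasome gene passed the test. Of the 46 members, 44 reached 1 FPKM in at least 2 libraries and were tested with limma on log2(FPKM + 1) among 10242 genes. At a Benjamini-Hochberg adjusted p under 0.05, 0 members were higher and 0 lower in Csk(f/f)-labelled libraries, where 0.0391% of all genes were higher and 0.0391% lower. Before adjustment, at p under 0.05, 0 members were higher and 8 (18.2%) lower, beside 8.07% and 13.6% of all genes. The counts changed with the Csk(+/+) library that was left out. Fits without a Csk(f/f)-labelled library leave 1 library in that group, so their member counts are not given. Lower members numbered 4, 12 and 8 without Csk(+/+) replicates 1, 2 and 3. Higher members numbered 10 without Csk(+/+) replicate 3 and 0 without Csk(+/+) replicate 1 or 2. Among these fits the share over all genes is given only without Csk(+/+) replicate 3, further on. The other changes in count are not set against all genes. The groups of libraries did not overlap for 4 members that were higher (9.09%) and for 12 that were lower (27.3%), beside 20.7% and 24.5% of all genes. The median log2 difference, Csk(f/f)-labelled minus Csk(+/+), was -0.05 over the 44 members and -0.01 over all genes tested. With all 5 libraries, fewer members than genes in general were higher by either rule. Without Csk(+/+) replicate 3 this was turned round for the unadjusted p, as described further on. Overlap of the groups without that library is not given.

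**Figure D1:**
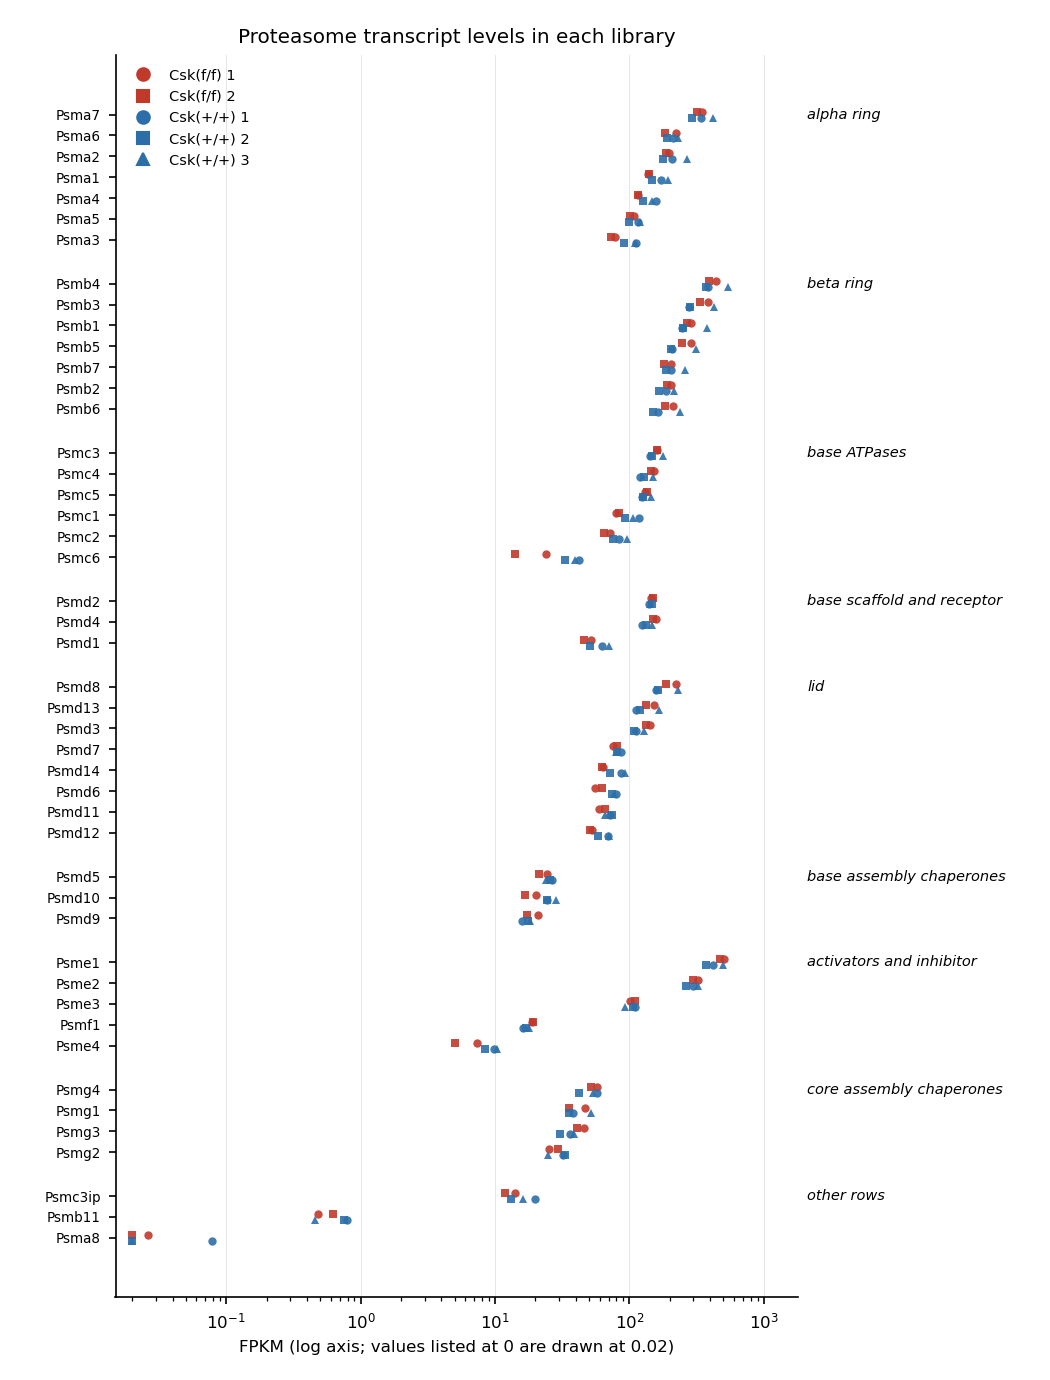
FPKM of each of the 46 members in each library on a log axis, grouped by role and ordered by mean level; red marks are the 2 Csk(f/f)-labelled libraries and blue marks the 3 Csk(+/+) libraries. Core subunits lie mostly between 100 and 540 FPKM, most regulatory particle subunits lie lower, and Psmc6 shows the clearest gap between the groups.

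Levels differed far more between subunits than between the groups. FPKM is scaled by transcript length, so levels are set side by side here. The part of GC content or of processed gene copies in the order of levels was not tested. The median core subunit had 208 and 185 FPKM in Csk(f/f)-labelled libraries and 206, 183 and 249 in Csk(+/+). The median regulatory particle subunit had 80.1 and 83.7 FPKM, against 112, 92.3 and 107. The core median exceeded the regulatory one 2.60 and 2.21 times in Csk(f/f)-labelled libraries and 1.84, 1.99 and 2.33 times in Csk(+/+), so these ratios overlapped. The classes also overlapped, since 9 of 17 regulatory genes had a mean above that of Psma3, the lowest core gene (93.0 FPKM). The assembly chaperones were lower than both, with 5-library means of 18 to 24.3 FPKM for the base chaperones and 28.9 to 52.5 for the core chaperones.

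In the alpha ring, which forms the gate of the barrel, all 7 genes had negative differences (median log2 difference -0.16, range -0.46 to -0.06). After a correction for transcript GC content, described further on, the median was -0.02 (range -0.34 to 0.32), and Psma1 (0.03), Psma2 (0.32) and Psma6 (0.12) were positive. Psma3, the lowest in level, had 78.3 and 72.7 FPKM in Csk(f/f)-labelled libraries and 113, 90.9 and 110 in Csk(+/+). Both Csk(f/f)-labelled values lay below all 3 Csk(+/+) values, and the log2 difference was -0.46 ± 0.14 (SE; limma adjusted p = 0.17). Psma1 (139 ± 2.79 against 171 ± 22.7 FPKM; SD, n = 2 and n = 3 here and below) and Psma4 (116 ± 0.137 against 143 ± 16) also did not overlap. Psma7, the most abundant alpha gene, had 347 and 321 FPKM against 342, 291 and 420, and the groups overlapped (log2 difference -0.06 ± 0.18, adjusted p = 0.866). Psma7 stood above the next gene, Psma6, with ranges that did not meet, while Psma6 and Psma2 (5-library means of 209 and 208 FPKM) could not be ordered. Psma2 (193 against 219 FPKM), Psma5 (106 against 112) and Psma6 (204 against 212) overlapped as well.

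The beta ring, which holds the proteolytic sites, was mixed in direction (4 genes positive and 3 negative, median log2 difference 0.06, range -0.16 to 0.17). Psmb5, the chymotrypsin-like beta5 subunit, had 289 and 248 FPKM in Csk(f/f)-labelled libraries and 207, 203 and 316 in Csk(+/+). Psmb6, the caspase-like beta1 subunit, had 212 and 183 FPKM, against 164, 151 and 240. Psmb7, the trypsin-like beta2 subunit, had 204 and 181 FPKM, against 205, 188 and 258. For Psmb5 and Psmb6 the Csk(f/f)-labelled values lay between Csk(+/+) replicate 3 and the other two Csk(+/+) libraries. Their log2 differences were 0.17 ± 0.21 and 0.12 ± 0.21, that of Psmb7 was -0.16 ± 0.17, and the limma adjusted p-values were 0.638, 0.736 and 0.568. The structural subunits Psmb4 (419 ± 36.4 against 432 ± 93.7 FPKM), Psmb3 (360 ± 30.8 against 331 ± 84.6), Psmb1 (278 ± 14.7 against 292 ± 74.9) and Psmb2 (196 ± 9.25 against 189 ± 24.7) overlapped too. The order of levels ran from Psmb4 to Psmb6, and no neighbouring pair in it had ranges that stood apart.

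The base ATPases held the member with the largest difference. Psmc6 encodes the ATPase Rpt4. It had 24.1 and 14.2 FPKM in Csk(f/f)-labelled libraries and 42.4, 33.2 and 39.5 in Csk(+/+). The groups did not overlap, and the 2 Csk(f/f)-labelled libraries differed from each other more than the Csk(+/+) libraries did. The log2 difference was -1.0 ± 0.23 (95% CI -1.53 to -0.47, a ratio of 0.499), with an unadjusted p of 0.00258 (limma adjusted p = 0.154). Psmc6 was also the least abundant ATPase gene, at 0.185 and 0.104 of the median of the other ATPases in Csk(f/f)-labelled libraries and 0.354, 0.261 and 0.271 in Csk(+/+). Leaving out 1 library moved its log2 difference between -1.37 (without Csk(f/f) replicate 1) and -0.64 (without Csk(f/f) replicate 2). With array weights, by which limma down-weighted Csk(+/+) replicate 3, Psmc6 passed the threshold (-0.97, limma adjusted p = 0.0404). That fit called 671 of the 10242 genes tested, against 8 without weights, and it held no GC correction.

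Psmc1, the ATPase Rpt2, had 80.1 and 83.7 FPKM in Csk(f/f)-labelled libraries and 118, 92.3 and 107 in Csk(+/+), also without overlap (log2 difference -0.36 ± 0.14, limma adjusted p = 0.213). Psmc4, the ATPase Rpt3, had 153 and 145 FPKM, against 120, 128 and 150, so the groups overlapped (0.17 ± 0.14, adjusted p = 0.471). Psmc2 (68.1 ± 5.02 against 85.0 ± 10.4 FPKM) did not overlap, and Psmc3 (161 ± 1.93 against 156 ± 20) and Psmc5 (133 ± 4.35 against 133 ± 11.3) did. The ATPases form a ring with 1 place for each, yet their 5-library means ran from 30.7 to 158 FPKM. Of the scaffold and receptor genes, Psmd4, the ubiquitin receptor Rpn10, had 159 and 149 FPKM, against 124, 133 and 147, a small gap with no overlap (0.19 ± 0.13, adjusted p = 0.389). Psmd1, the scaffold Rpn2, had 51.6 and 46.0 FPKM, against 62.9, 50.9 and 70.4 (-0.32 ± 0.16, adjusted p = 0.292). Psmd2, the scaffold Rpn1, was the steadiest member in Csk(+/+), with a coefficient of variation of 2.31%, and had 147 ± 4.84 against 143 ± 3.30 FPKM.

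The lid split in direction, with 3 genes positive and 5 negative (median log2 difference -0.13). Psmd14, the deubiquitinase Rpn11, had 63.2 and 62.1 FPKM in Csk(f/f)-labelled libraries and 87.4, 71.7 and 92.4 in Csk(+/+). Psmd6, the subunit Rpn7, had 55.6 and 62.7 FPKM, against 79.3, 74.9 and 77.0. Psmd12, the subunit Rpn5, had 52.6 and 50.9 FPKM, against 68.9, 58.9 and 70.8. None of these 3 overlapped, with log2 differences of -0.41 ± 0.14, -0.38 ± 0.12 and -0.34 ± 0.13 and limma adjusted p-values of 0.192, 0.176 and 0.209. Psmd3, the subunit Rpn3, went the other way with 142 and 133 FPKM, against 113, 109 and 129, also without overlap (0.23 ± 0.13, adjusted p = 0.315). Psmd8 (203 ± 24.9 against 185 ± 41.3 FPKM), Psmd13 (143 ± 12.6 against 133 ± 28.3) and Psmd7 (78.1 ± 3.96 against 82.1 ± 3.71) overlapped, and Psmd11 (62.3 ± 4.45 against 70.7 ± 4.25) did not.

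Among the assembly chaperones, Psmd10, known as gankyrin, had 20.1 and 16.7 FPKM in Csk(f/f)-labelled libraries and 24.3, 24.6 and 28.4 in Csk(+/+). These did not overlap (log2 difference -0.46 ± 0.16, limma adjusted p = 0.18). Psmd9 had 20.8 and 17.3 FPKM, against 16, 17.6 and 18.2 (0.13 ± 0.16, adjusted p = 0.631), and Psmd5 had 22.8 ± 2.16 against 25.4 ± 1.34. Of the core chaperones, Psmg3 had 45.7 and 40.7 FPKM, against 36.4, 30.3 and 38.6, without overlap and with the largest positive log2 difference among the members (0.30 ± 0.15, adjusted p = 0.283). Psmg2 had 25.1 and 29.6 FPKM, against 32, 33.0 and 24.7 (-0.12 ± 0.17, adjusted p = 0.697). Psmg1 (41.1 against 42.0 FPKM) and Psmg4 (54.8 against 51.0) overlapped.

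The activators spanned the widest range of levels. Psme1, PA28 alpha, was the most abundant of all members, with 508 and 471 FPKM in Csk(f/f)-labelled libraries and 418, 375 and 494 in Csk(+/+) (log2 difference 0.20 ± 0.16, limma adjusted p = 0.472). Psme2, PA28 beta, had 310 ± 16.7 against 295 ± 31.6 FPKM, and the nuclear activator gene Psme3, PA28 gamma, had 106 ± 6.96 against 103 ± 8.55. The Psme1 to Psme2 ratio was 1.58 and 1.58 in Csk(f/f)-labelled libraries and 1.40, 1.43 and 1.52 in Csk(+/+). Psme4, the activator PA200, was the lowest tested member, with 7.32 and 5.02 FPKM, against 9.91, 8.45 and 10.3, without overlap (-0.57 ± 0.21, adjusted p = 0.198). The inhibitor gene Psmf1 had 19.0 ± 0.111 against 17.1 ± 0.863 FPKM, a gap without overlap (0.15 ± 0.14, adjusted p = 0.554).

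Of the other rows that match the name pattern, Psma8 and Psmb11 had the lowest levels of all members. Psma8, an alpha subunit of testis, had 0.0260 FPKM in one Csk(f/f)-labelled library, 0.0779 in one Csk(+/+) library, and 0 in the other 3. Psmb11, the beta5t subunit of thymic epithelium and the direct neighbour of Psmb5 in the RefSeq order of coding genes, had 0.486 and 0.628 FPKM, against 0.799, 0.748 and 0.455. Both stayed below the 1 FPKM filter and were not tested. Psmc3ip had 14.0 and 11.9 FPKM, against 19.7, 13.2 and 16.2 (-0.30 ± 0.20, limma adjusted p = 0.381).

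**Figure D2:**
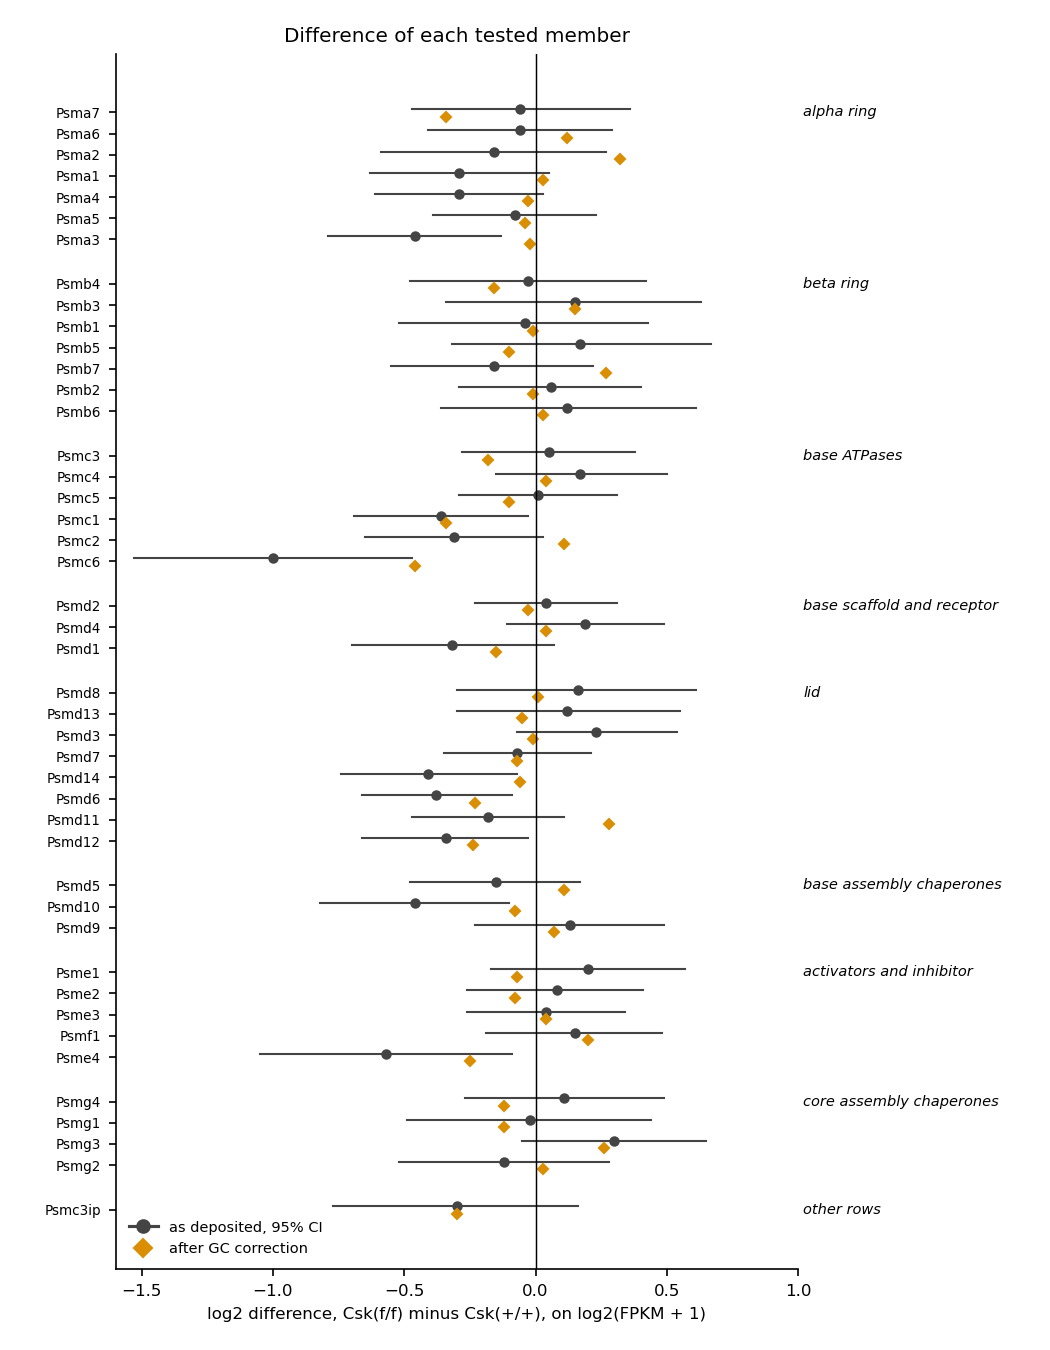
Log2 difference of the 44 tested members, Csk(f/f)-labelled minus Csk(+/+), by role; black points are the values as deposited with their 95% confidence intervals and orange diamonds the values after the correction for transcript GC content. The interval lies wholly below 0 for the 8 members with an unadjusted p under 0.05, and the diamonds are mostly nearer to 0.

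The members' differences followed the GC content of their transcripts, which was also the trend of all genes in this table. Across the 44 members the Spearman rho of the log2 difference with transcript GC content was 0.78, and across 10119 genes it was 0.71; genes share libraries and are not independent replicates. With the GC content of the coding sequence alone the members' rho was 0.82. All 11 members under 45% GC had a negative difference (median -0.31), where the median of all genes in that range was -0.40 and 91.9% were negative. Of the 14 members between 45% and 50%, 11 were negative (median -0.10; all genes -0.12). Of the 19 members at 50% or more, 3 were negative (median 0.12; all genes 0.21). All 8 members lower at an unadjusted p under 0.05 lay under 50% GC, 5 of them under 45%.

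Coding stretches of 120 bases show this contrast. They are from the GENCODE transcripts of 2 members with a negative difference and low GC content, Psmc6 and Psma3, and 2 with a positive difference and high GC content, Psmb5 and Psmd3; none of the 4 passed the adjusted threshold. Each is the stretch whose GC content is nearest to that of the gene's whole coding sequence, read 5′ to 3′, with G and C in capitals.
Psmc6: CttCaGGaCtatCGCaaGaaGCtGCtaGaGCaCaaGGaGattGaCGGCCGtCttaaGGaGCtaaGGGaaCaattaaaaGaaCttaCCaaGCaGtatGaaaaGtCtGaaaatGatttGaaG
Psma3: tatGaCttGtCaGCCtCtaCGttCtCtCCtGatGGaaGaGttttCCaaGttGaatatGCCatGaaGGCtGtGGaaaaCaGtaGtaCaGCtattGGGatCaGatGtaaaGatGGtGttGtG
Psmb5: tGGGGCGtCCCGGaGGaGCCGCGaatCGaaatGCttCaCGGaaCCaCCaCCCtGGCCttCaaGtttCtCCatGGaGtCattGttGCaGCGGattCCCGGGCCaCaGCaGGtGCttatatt
Psmd3: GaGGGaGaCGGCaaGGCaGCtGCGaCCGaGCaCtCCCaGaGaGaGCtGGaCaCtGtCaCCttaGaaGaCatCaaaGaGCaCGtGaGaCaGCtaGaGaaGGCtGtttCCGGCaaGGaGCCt
Of the 120 bases, 50 are G or C in Psmc6, 51 in Psma3, 69 in Psmb5 and 69 in Psmd3. The whole coding sequences hold 41.8%, 42.2%, 57.7% and 57.3% GC, and the longest transcripts 37.0%, 40.8%, 56.6% and 55.4%.

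After the GC trend was subtracted from each library, 18 of the 44 members had the opposite sign. The median over the members was -0.03, and at the unadjusted threshold of 0.05 there were 0 higher members and 1 lower member (2.27%), beside 4.89% and 5.07% of all genes. That member was Psmc6, with a log2 difference of -0.46 ± 0.15 (unadjusted p = 0.0204, limma adjusted p = 0.438). Genes within 1 point of the GC content of Psmc6 (139 genes) had a median difference of -0.51 as deposited, against -1.0 for Psmc6. Psmc1, with a GC content of 49.5%, had -0.34 ± 0.15 after the correction, against -0.36 ± 0.14 before, but its unadjusted p was 0.0607 (limma adjusted p = 0.52). With the GC content of coding transcripts it had -0.28. Those of Psma3 (-0.02), Psmd14 (-0.06) and Psmd10 (-0.08) were close to 0. Psmb7 had 0.27 after the correction, against -0.16 as deposited, and Psma7 had -0.34, against -0.06. For both, the GC content of the longest transcript (40.8% and 57.4%) differs from that of the coding sequence (48.6% and 50.5%). With the mean GC content of the coding transcripts in its place, Psmb7 had -0.03, Psma7 -0.08 and Psmc6 -0.42, and again 18 of 44 signs were opposite to the deposited values. Psma2 moved further, to 0.32 with the longest transcript and 0.33 with coding transcripts, against -0.16 as deposited.

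**Figure D3:**
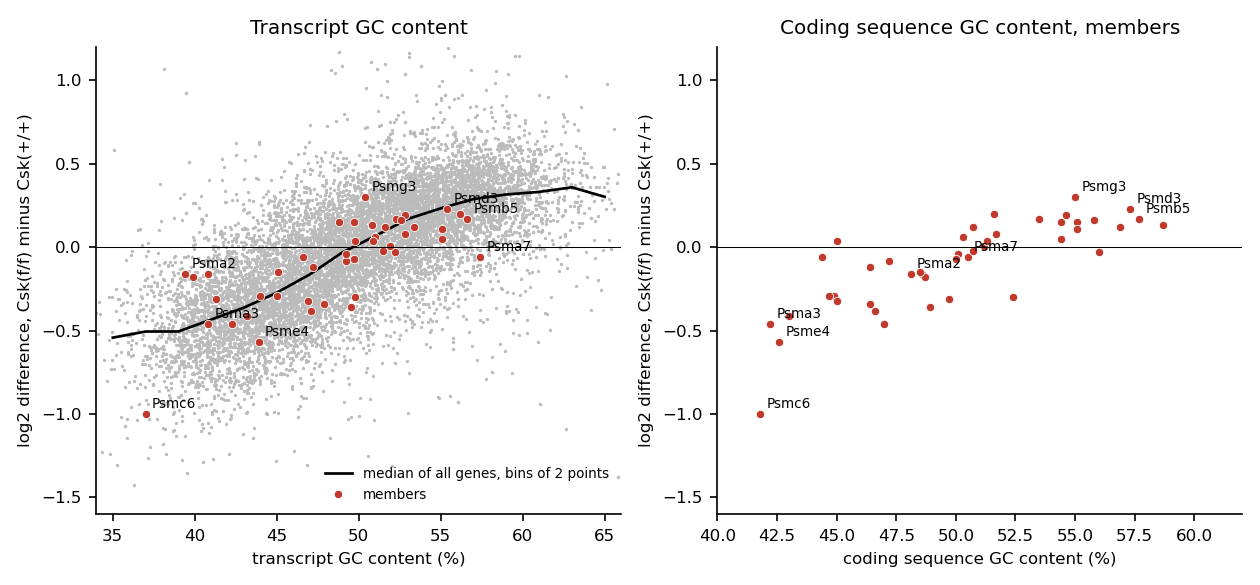
Left: log2 difference, Csk(f/f)-labelled minus Csk(+/+), against the GC content of the longest transcript in percent for all tested genes (grey, those inside the axes), with their median per bin as a black line and the 44 members in red. Right: the members against the GC content of their coding sequence; low GC members such as Psmc6 and Psme4 lie below 0 and high GC members such as Psmd3 above.

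A single library carried much of the spread. Csk(+/+) replicate 3 had the highest value of the 5 libraries for all 7 beta ring genes, for 5 of 7 alpha ring genes and for 24 of the 44 members (54.5%), where it was highest for 19.0% of all genes tested. Its median deviation from the 5-library mean of each gene, on the log2 scale, was 0.34 over the beta ring. The other 4 libraries had 0.08 and -0.03 (Csk(f/f)-labelled) and -0.19 and -0.21 (Csk(+/+) replicates 1 and 2). Over all genes its median deviation was -0.07. The coefficient of variation over Csk(+/+) was accordingly wider for the beta ring (median 25.6%) than for the lid (median 9.40%).

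Without Csk(+/+) replicate 3, 10 members (22.7%) were higher and 8 (18.2%) lower at p under 0.05 before adjustment, beside 13.3% and 21.4% of all genes, and by limma still 0 passed the adjusted threshold. The 10 higher members were Psmb3, Psmb5, Psmb6, Psmc4, Psmd3, Psmd4, Psmd8, Psmd13, Psme1 and Psmg3, with log2 differences from 0.26 for Psmc4 to 0.38 for Psmb5. Among these, Psmb5 had the smallest adjusted p (0.0713). The 8 lower members were those named with all libraries, led by Psmc6 (-0.98 ± 0.23, limma adjusted p = 0.053). The beta ring median was then 0.16, with 6 of 7 positive, and the alpha ring median was -0.03, with 2 of 7 positive.

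**Figure D4:**
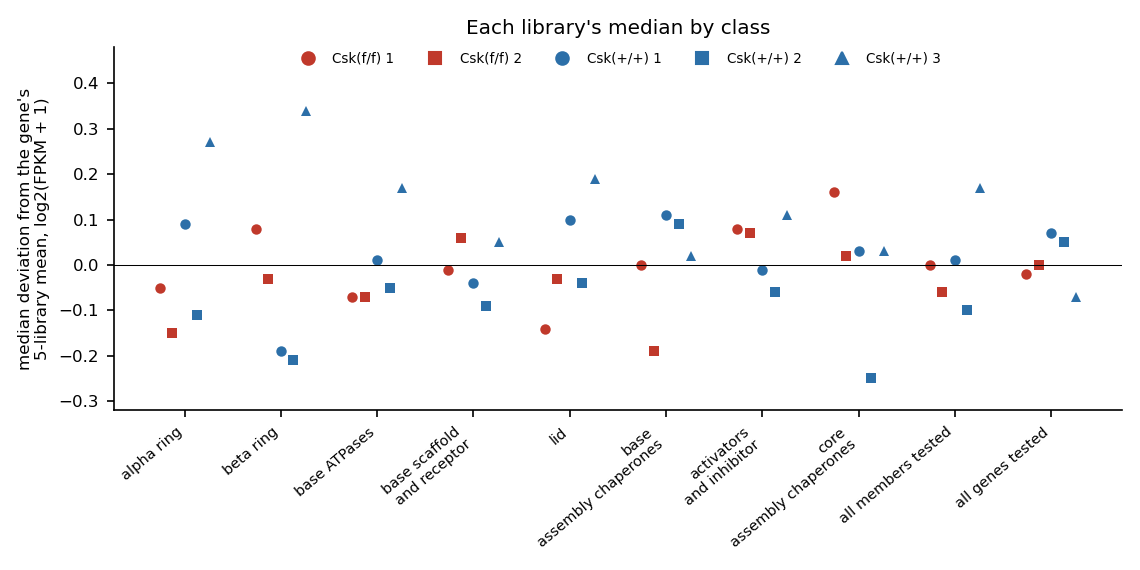
Median deviation of each library from the 5-library mean of each gene, on the log2(FPKM + 1) scale, for each role class, for all members and for all genes tested; red marks are the Csk(f/f)-labelled and blue marks the Csk(+/+) libraries. Csk(+/+) replicate 3 (triangles) stands at 0.34 in the beta ring and 0.27 in the alpha ring but at -0.07 over all genes.

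Immunosubunits outweighed 2 of the 3 constitutive catalytic subunits in both groups. Psmb8 had 671 and 651 FPKM in Csk(f/f)-labelled libraries and 595, 579 and 671 in Csk(+/+), and its share of the beta5 pair with Psmb5 was 71.2 ± 1.77% against 72.0 ± 3.52%. Psmb9 made up 64.5 ± 1.86% of the beta1 pair with Psmb6, against 65.4 ± 3.79%. Psmb10 made up 47.3% and 49.5% of the beta2 pair with Psmb7 in Csk(f/f)-labelled libraries and 40.8%, 42.9% and 41.1% in Csk(+/+). Taken singly, Psmb8, Psmb9 and Psmb10 had log2 differences of 0.11, 0.07 and 0.23 (limma adjusted p = 0.677, 0.792 and 0.367), and after the GC correction Psmb8 and Psmb10 had -0.03 and -0.04. The beta2 shares did not overlap, with a difference of 6.83 percentage points, while the other 2 pairs overlapped (-0.882 and -0.833 points). A two-sided exact permutation test over the 10 ways to split 5 libraries gave p = 0.1, 0.8 and 0.8 for beta2, beta5 and beta1 (adjusted over the 3 pairs 0.3, 0.8 and 0.8), and 0.1 is the smallest p this design allows. The beta2 difference turned to -5.33 points after the GC correction and to 0.218 with the GC content of coding transcripts, so its direction rests on that choice.

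**Figure D5:**
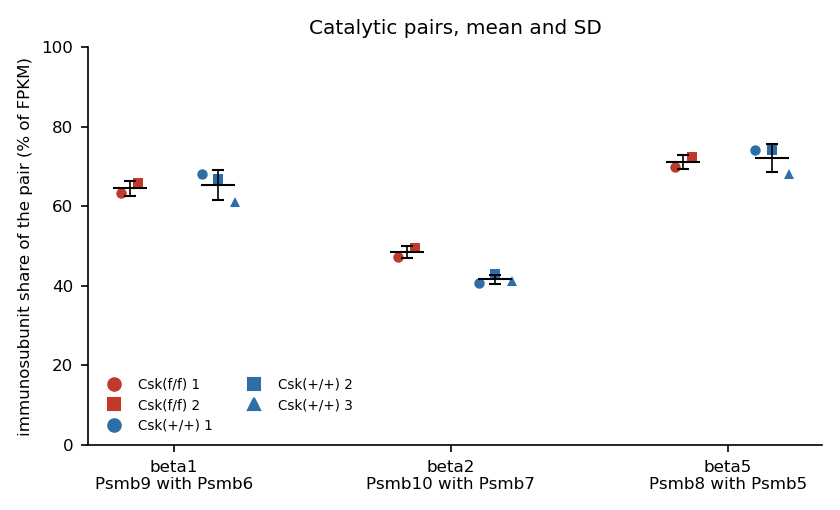
Share of the immunosubunit in each catalytic pair, in percent of the summed FPKM of the pair, for each library, with the mean and SD of each group in black; Csk(f/f)-labelled libraries are red and stand left of the blue Csk(+/+) libraries. Only the beta2 pair shows groups apart, at 48.4% against 41.6%.

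Beyond the subunits, 7 lists of related genes were examined, and 0 genes of any list passed the adjusted threshold by limma. Their counts at an unadjusted p under 0.05 stand beside 8.07% higher and 13.6% lower among all genes. Of 13 tested proteins that bind the proteasome but lie outside the name pattern, 3 had positive and 10 negative differences (median -0.19, and -0.05 after the GC correction), with 0 higher and 2 lower at that unadjusted threshold. Uchl5, a deubiquitinase docked on the base, had 13.1 and 12.4 FPKM in Csk(f/f)-labelled libraries and 27.4, 21.0 and 25.6 in Csk(+/+). Its log2 difference was -0.89 ± 0.16 (limma adjusted p = 0.129), and -0.41 after the GC correction. Without Csk(+/+) replicate 3 and without the GC correction, Uchl5 passed the threshold at -0.86. That fit called 411 of 10147 genes, against 8 genes with all libraries. AI314180, the symbol used here for the proteasome adaptor Ecm29, had 13.6 and 8.30 FPKM, against 18.5, 15.6 and 16.1. The remaining subunits Adrm1 (114 against 99.7 FPKM) and Shfm1 (226 against 271) and the maturation factor Pomp (251 against 284) had unadjusted p-values above 0.05.

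Of 8 genes that control proteasome transcription, 2 were higher and 1 was lower at the same threshold (median 0.21, and 0.06 after the GC correction). Nfe2l1 encodes NRF1, the factor that raises proteasome genes when degradation fails, and had 22.0 and 25.4 FPKM in Csk(f/f)-labelled libraries and 24.4, 28.3 and 17.5 in Csk(+/+) (log2 difference 0.04 ± 0.21, limma adjusted p = 0.921). Ngly1, the glycanase that processes NRF1, had 4.29 and 4.29 FPKM, against 8.63, 7.04 and 6.09 (-0.63 ± 0.20, adjusted p = 0.176). Maff, a small MAF partner, had 2.44 ± 0.194 against 1.25 ± 0.256 FPKM, and Keap1, the adaptor that marks NRF2 for degradation, 39.2 ± 2.43 against 31.0 ± 2.76. After the GC correction the log2 differences were -0.22 for Ngly1, 0.32 against 0.62 before for Maff, and 0.03 against 0.33 before for Keap1. Of the ubiquitin genes and activating enzymes (6 tested, 1 higher and 0 lower; median 0.15, and 0.04 after the GC correction), Uba1, the main activating enzyme, had 227 ± 7.12 against 181 ± 13.8 FPKM (0.33 ± 0.13, adjusted p = 0.212). Of the 8 VCP segregase genes (1 higher and 0 lower; median -0.03, and 0.02 after the correction), Nploc4 had 38.1 ± 1.01 against 28.7 ± 4.87 FPKM.

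The COP9 signalosome, built like the lid, had 4 positive and 5 negative genes, 1 higher and 1 lower at that threshold (median -0.05). Gps1 had 85.1 ± 1.31 against 68.2 ± 3.45 FPKM and Cops2 7.83 ± 3.04 against 12.6 ± 1.67. The CCT chaperonin, another ring complex, had 2 positive and 6 negative genes, 0 higher and 2 lower (median -0.24), with Cct2 at 213 ± 11.4 against 266 ± 12.6 FPKM and Cct6a at 118 ± 5.13 against 154 ± 22.6. After the GC correction these medians were -0.03 and 0.07, and the log2 differences of Gps1 and Cops2 were 0.06 and -0.13, against 0.32 and -0.66 before.

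NRF1 and NRF2 bind the antioxidant response element, so the 250 bases before the start of each gene were searched for its core, TGACNNNGC, on both strands. The RefSeq promoter table (GRCm38.p6) held 38 of the 46 members, and 5 of them (13.2%) had the core. Of all 27025 genes with a promoter there, 11.5% had it. Those genes were not limited to the genes tested here. The windows below are those matches with up to 15 bases on each side, cut at the promoter's ends, with the core in capitals on the strand of the gene.
Psmb5 (chr14:54618019-54618057, minus strand): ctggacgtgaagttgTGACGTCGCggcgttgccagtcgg
Psmb6 (chr11:70525333-70525356, plus strand): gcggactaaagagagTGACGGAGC
Psmd9 (chr5:123228144-123228182, plus strand): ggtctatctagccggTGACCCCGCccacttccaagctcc
Psmc6 (chr14:45329582-45329620, plus strand): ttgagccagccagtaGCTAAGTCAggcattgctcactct
Psmd12 (chr11:107479278-107479304, plus strand): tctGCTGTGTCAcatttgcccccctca
In Psmc6 and Psmd12 the core reads on the opposite strand. These 5 genes had log2 differences from -1.0 (Psmc6) to 0.17 (Psmb5), in both directions. The CCAAT box, CCAAT, was found in 36.8% of the members and 37.5% of all genes with a promoter, on either strand. The GC box, GGGCGG, was found in 55.3% and 35.4%. The share among tested genes alone was not computed. A match describes the letters only.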

How the data were processed

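The table deposited by the authors gave FPKM per gene and library. Per the submitters' processing notes it was made with TopHat2 2.0.8 and Cufflinks 2.1.1 on mm9; annotation and scaling between libraries are not given in the sources used here. Total RNA of the sorted cells was made into libraries with a NEBNext Ultra kit, per the labels' protocols. All 5 columns were mapped by title, and 1 line repeating a header was left out. Members and lists were chosen with earlier results of these data known.

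Genes at 1 FPKM or more in at least 2 libraries (10242) were compared by limma 3.58.1 (R 4.3.3, trended prior, Benjamini-Hochberg over all genes tested) as log2(FPKM + 1). This scale understates the change of low genes. The code was tested on simulated data. For the GC correction, deviations of a library from the gene means were smoothed over GC content of the longest GENCODE M21 transcript (lowess, span 0.3) and the smoothed curve was taken off; transcripts were matched by symbol (10119 genes, 98.8%). GENCODE and RefSeq use GRCm38, so no coordinate was joined to the mm9 values. Processed copies of proteasome genes could take or lend fragments; this was not tested.

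Members given with every library's value were the catalytic subunits, the 8 with the smallest p, the extremes of each class and of level, and those not tested. From each list, up to 4 genes with an unadjusted p under 0.05 were named, or else the 2 with the smallest p. Nfe2l1, Psmb9, Adrm1, Shfm1 and Pomp were named outside this rule, after their values were seen. Alternatives tried were the pseudocount, the filter, median-ratio, equal-sum and quantile scaling, array weights, GC corrections, leaving out each library, and a block for replicate number.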

Additional observations from a re-analysis of the deposited data

How the results depend on the processing

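Of all genes tested, 8 passed the adjusted threshold; this became 4 without a filter, 671 with array weights, which gave Csk(+/+) replicate 3 little weight, and 5 to 411 with 1 library left out, the highest without Csk(+/+) replicate 3. No member passed in any fit but 2. Psmc6 passed with array weights (1 member, -0.97, limma adjusted p = 0.0404) and with the replicate block (1 member, -0.98, 0.0387). The labels state no pairing by replicate number. Deviations of same-numbered libraries from their group means correlated at -0.132 for number 1 and 0.107 for number 2. With only 2 Csk(f/f)-labelled libraries, their deviations mirror each other, so these values cannot show whether same-numbered libraries are paired. The block, which leaves Csk(+/+) replicate 3 out of the contrast, called 492 genes, and 162 with the GC correction. Members higher at an unadjusted p under 0.05 numbered 6 with array weights, 10 with the block and 6 with block and GC correction. With 1 Csk(+/+) library left out they numbered 0 to 10. Members lower numbered 5 after median-ratio rescaling, 1 after either GC correction and 2 with block and GC correction. With 1 Csk(+/+) library left out they numbered 0 to 12. For most of these fits no share over all genes is given, so the counts cannot be set against all genes.

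Several class medians moved by more than the spread of the Csk(+/+) libraries. Those of the beta ring, the core chaperones and all members stayed within it in every setting. With the GC correction the base chaperones had 0.07 and the activators -0.07; by coding transcripts the base chaperones had -0.01 and the scaffold class -0.04. With block and GC correction the alpha ring had 0.07, the ATPases -0.00, the lid 0.08 and the base chaperones 0.11. With 1 library left out, with or without the GC correction, the medians ranged from -0.30 to 0.07 (alpha ring), -0.14 to 0.25 (beta ring), -0.22 to -0.00 (ATPases), -0.06 to 0.07 (scaffold), -0.25 to 0.17 (base chaperones), -0.19 to 0.08 (lid), -0.20 to 0.15 (activators), -0.08 to 0.18 (core chaperones) and -0.13 to 0.08 (all members). The beta2 share had -5.33 points by the GC correction, 0.218 by coding transcripts, and 5.76 to 7.90 with 1 library left out.

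Over all 44 tested members, 18 signs turned by the GC correction and 18 by that for coding transcripts. Among the genes named by rule, signs turned as follows. By the GC correction the log2 differences were -0.10 (Psmb5), 0.27 (Psmb7), -0.01 (Psmd3), -0.07 (Psme1), 0.03 (Psmg2), -0.03 (Psmb8) and -0.04 (Psmb10). By coding transcripts they were -0.10 (Psmb5), -0.11 (Psmb6), 0.02 (Psma3 and Psmd14), -0.04 (Psmd9 and Psmd3), 0.13 (Psmg2), -0.13 (Psmb8) and -0.02 (Psmb10). With block and GC correction they were 0.40 (Psmb7), 0.02 (Psma3), 0.01 (Psmd10 and Psmd1) and 0.04 (Psmd14). Psma7 had 0.06 with array weights and 0.08 with the block. With 1 library left out, with or without the GC correction, ranges crossed 0 for Psmb5 (-0.27 to 0.38), Psmb6 (-0.14 to 0.32), Psmb7 (-0.26 to 0.41), Psma3 (-0.56 to 0.04), Psmd10 (-0.59 to 0.01), Psmd14 (-0.51 to 0.04), Psma7 (-0.53 to 0.08), Psmc4 (-0.04 to 0.26), Psmd4 (-0.04 to 0.26), Psmd1 (-0.44 to 0.01), Psmd9 (-0.09 to 0.26), Psmd3 (-0.10 to 0.31), Psme1 (-0.21 to 0.31), Psmg2 (-0.24 to 0.13), Psmb8 (-0.11 to 0.17), Psmb10 (-0.15 to 0.35), Gps1 (-0.01 to 0.36) and Cops2 (-1.02 to 0.06). Among the 8 members with the smallest unadjusted p, Psmc6, Psmc1, Psmd6, Psmd12 and Psme4 stayed negative in every fit run. They were picked by their p in the same libraries that these fits use, so the kept sign is no independent support. By coding transcripts Psmd12 had -0.06 ± 0.14, Psmd6 -0.08 ± 0.14 and Psme4 -0.13 ± 0.16 (SE), each smaller in size than its SE. Psmc6 had -0.42 ± 0.15 and Psmc1 -0.28 ± 0.15. Beyond what each setting changes by construction, the cause was not tested. The small number of libraries limits these comparisons, and fragment counts limit the low members as well.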
